A study of Homo sapiens and Mus musculus with 24 samples.

Results

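The matrix metalloproteinases and their tissue inhibitors were examined through 10 genes, MMP1, MMP7, MMP10, MMP14, MMP15, MMP24, ADAM10, TIMP1, TIMP2 and TIMP3. All 10 were found by symbol among the 58051 human gene identifiers, and 9 had a mouse gene of the same symbol among 29307. The 10 genes were chosen from results of the Caco-2 libraries themselves, so their levels and changes in Caco-2 cells are given as a description. How many of them passed the threshold of a fit over all genes is counted, without p-values, and nothing is read from those counts. The choice is not stated to have used mouse values, though earlier results of these data were known when it was made.

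The study asked what loss of the DNA methyltransferase DNMT3A does to intestinal epithelial cells. Caco-2 cells come from a colorectal adenocarcinoma and can differentiate towards enterocytes. RNA was analysed from 4 libraries of WT cells, 4 of ΔDNMT3A cells, in which DNMT3A was edited with CRISPR-Cas9, 3 of the DNMT3A1 line and 4 labelled DNMT3A2. The DNMT3A1 and DNMT3A2 lines are ΔDNMT3A cells that carry a TY1-tagged long or short isoform on a piggyBac vector driven by CMV, selected with puromycin. The edited line and both isoform lines were each grown up from diluted single cells, so a difference between lines cannot be told apart from a difference between clones. The labels do not say that replicates of a line came from separate cultures, and the spread between them may be technical. The mouse libraries came from EpCAM-positive colonic epithelial cells of adult Dnmt3a fl/fl mice (n = 4) and Dnmt3a ΔIEC mice (n = 4) at steady state, of both sexes per the methods. The floxed line was on a C57BL/6J background and the Cre mice it was crossed with on C57BL/6JxSJL/J, so SJL/J alleles that came with Cre cannot be told apart from the deletion. Both groups carry loxP sites around the same stretch of Dnmt3a, and ΔIEC mice also carry Cre under the Villin promoter, which is active in intestinal epithelium.

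Matrix metalloproteinases are zinc-dependent enzymes that cut proteins of the extracellular matrix and of the cell surface. Most are secreted as inactive precursors, while the membrane-type enzymes are anchored in the plasma membrane and are activated inside the cell by furin-like convertases. ADAM10 is a membrane-bound sheddase that releases the outer parts of proteins such as Notch and E-cadherin. TIMPs bind the active site of these enzymes and block it, TIMP3 stays bound to the matrix, and TIMP2 also takes part in the activation of MMP2 on MMP14. In the gut, MMP1, MMP7 and MMP10 are known from wound edges and inflamed mucosa.

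Counted reads ranged from 22104408 to 42161299 per Caco-2 library and from 16943626 to 24921248 per mouse library. DNMT3A was at 61.9 to 67.1 CPM, the read count scaled to library size, in WT, 19.3 to 22.3 in ΔDNMT3A, 36.6 to 39.03 in DNMT3A1 and 20.1 to 23.5 in the libraries labelled DNMT3A2, which overlapped with ΔDNMT3A. Counts per gene do not separate the edited gene from the reintroduced isoform. The values of this line are therefore given for the libraries labelled DNMT3A2. At the protein level, the paper reports both isoforms in their lines by immunoblot and immunofluorescence. Mouse Dnmt3a was at 84.6 to 101.8 CPM in fl/fl and 41.7 to 49.6 in ΔIEC. Of 8 epithelial markers, EPCAM (729 to 1209 CPM) and VIL1 (533 to 666 CPM) were high in every Caco-2 library, whereas CDX1 did not exceed 0.0985 CPM. In ΔDNMT3A against WT, 5 of 7 epithelial markers tested rose and 1 fell, where 31.2% of all genes rose and 31.0% fell. KRT20, a keratin of differentiated enterocytes, was at 0.670 to 1.43 CPM in WT and 14.6 to 17.3 CPM in ΔDNMT3A. In the isoform lines it was at 0.460 to 2.14 CPM. Of 7 immune markers, PTPRC did not exceed 0.0282 CPM, but the 2 that were tested, CSF1R and ITGAM, both rose in ΔDNMT3A. The summed level of the 7 was 5.58 to 6.19 CPM in WT, 18.5 to 21.7 in ΔDNMT3A, 14.1 to 15.0004 in DNMT3A1 and 11.6 to 13.99 in DNMT3A2, most of it CSF1R. The part of these marker changes in the values of the 10 genes was not tested. In such bulk RNA, fewer cells of a type and less RNA per cell cannot be told apart.

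ΔDNMT3A cells had more RNA of MMP1, MMP7, MMP10, TIMP2 and TIMP3 and less of TIMP1 than WT cells. The 3 secreted enzymes MMP1, MMP7 and MMP10 changed most, with log2 fold changes of 3.45, 3.25 and 2.91, and TIMP1 stood at the other end with -2.27. Of the 10 genes, 7 were higher and 2 lower past the threshold of 0.05 in a quasi-likelihood fit (edgeR) adjusted over all genes, and ADAM10 did not pass. Of all 16654 genes tested, 62.2% passed, 31.2% higher and 31.0% lower. The groups did not overlap for 9 of the 10 genes, as for 55.4% of all genes. The median log2 fold change was 0.47 over the 10 genes and -0.0049 over all genes.

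**Figure D1:**
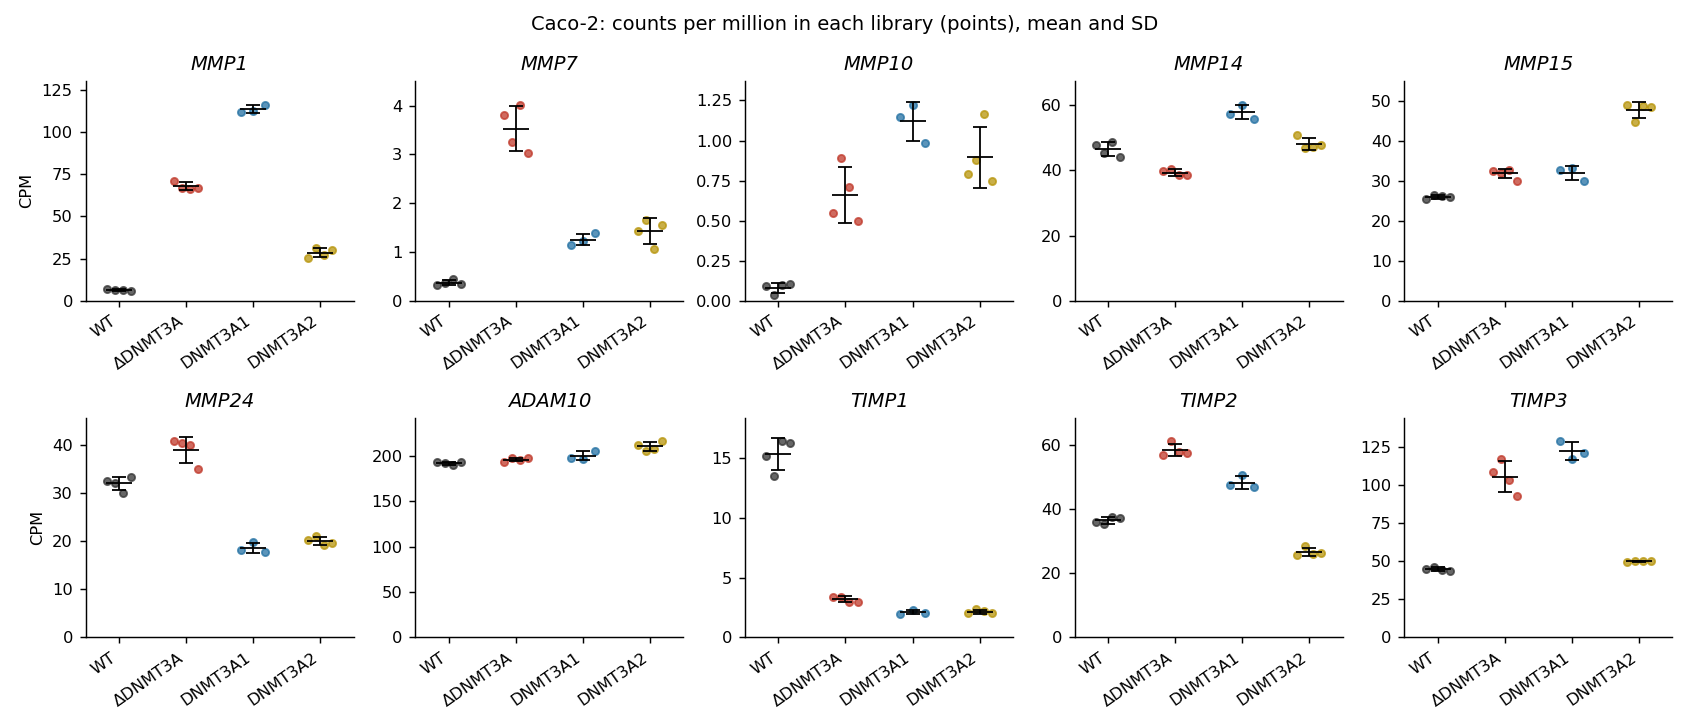
Levels in CPM of the 10 genes (y axes, linear, from 0) in each Caco-2 library (points) of the WT, ΔDNMT3A, DNMT3A1 and DNMT3A2 lines, with mean and SD (bars). MMP1 is lowest in WT (5.45 to 6.63 CPM) and highest in DNMT3A1 (112 to 116 CPM), while TIMP1 is highest in WT (13.5 to 16.4 CPM).

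MMP1, the interstitial collagenase, cuts fibrillar collagens. Its gene spans bases 102789920 to 102798160 of chromosome 11 (GRCh38, the build of all human positions here) and is read from the minus strand. The 4 WT libraries had 6.63, 6.56, 6.09 and 5.45 CPM, the 4 ΔDNMT3A libraries 71.2, 66.9, 65.9 and 67.1 CPM. The 3 DNMT3A1 libraries had 112, 113 and 116 CPM, and the 4 libraries labelled DNMT3A2 had 25.1, 31.3, 27.2 and 30.2 CPM. No library of any line overlapped with one of another, and the order was WT, DNMT3A2, ΔDNMT3A, DNMT3A1. Against ΔDNMT3A, the log2 fold change was 0.74 in DNMT3A1 (SE 0.035) and -1.26 in DNMT3A2 (SE 0.048), so the isoform lines lay on opposite sides of the line they were made from. Against WT, MMP1 was 10.95-fold higher in ΔDNMT3A (log2 3.45, SE 0.054), 18.4-fold in DNMT3A1 (log2 4.20, SE 0.054) and 4.57-fold in DNMT3A2 (log2 2.19, SE 0.072).

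MMP7, or matrilysin, is a small secreted enzyme of epithelial cells that cuts E-cadherin and activates defensins. It lies on the same strand of chromosome 11, from 102520508 to 102530753, at low levels. The WT libraries had 0.328, 0.362, 0.446 and 0.334 CPM, which were 10 to 14 reads each, and the ΔDNMT3A libraries 3.80, 3.26, 4.02 and 3.02 CPM. DNMT3A1 libraries had 1.15, 1.22 and 1.38 CPM, and those labelled DNMT3A2 had 1.42, 1.66, 1.06 and 1.55 CPM. Both isoform lines thus lay between WT and ΔDNMT3A without overlap with either, and they overlapped with each other. Relative to ΔDNMT3A, MMP7 had log2 fold changes of -1.49 in DNMT3A1 (SE 0.158) and -1.32 in DNMT3A2 (SE 0.147), and relative to WT 1.77 (SE 0.251) and 1.93 (SE 0.240).

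MMP10, or stromelysin 2, cuts a broad range of matrix proteins and can activate collagenase precursors. It lies between MMP7 and MMP1, from 102770503 to 102780628. WT libraries held 3, 1, 3 and 4 reads of it, or 0.0896, 0.0362, 0.0956 and 0.103 CPM. ΔDNMT3A libraries had 0.549, 0.888, 0.709 and 0.498 CPM, DNMT3A1 1.15, 1.22 and 0.985 CPM, and the libraries labelled DNMT3A2 0.790, 0.876, 1.17 and 0.745 CPM. Every line with the edited gene lay above WT, and neither isoform line lay closer to WT than ΔDNMT3A did. By the summed reads, 89 in ΔDNMT3A and 11 in WT, the ratio of levels was 7.85 (95% exact interval 4.18 to 16.3, counting error only). It was 13.2 for DNMT3A1 (7.09 to 27.3) and 10.7 for DNMT3A2 (5.71 to 22.1). Relative to ΔDNMT3A, the log2 fold change of MMP10 was 0.75 in DNMT3A1 (SE 0.242) and 0.44 in DNMT3A2 (SE 0.242) with overlapping groups.

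The stretches before the starts of MMP7 and MMP10 are shown with that of TIMP3 because these 3 genes changed in the same direction in ΔDNMT3A from promoters of unlike CpG content, and CpG sites are what DNMT3A methylates. RefSeq promoters on GRCh38.p14 matched 8 of the 10 genes, all but MMP1 and TIMP2. The sequences run 5′ to 3′ on the strand of the gene, from base -130 to base -11 before the RefSeq start. The letters TATAAA (gene strand) and TGANTCA (either strand) are in capitals. TGANTCA, where N is any base, is a broad form of the AP-1 motif. They lie at chr11:102530758-102530877 (minus strand), chr11:102780639-102780758 (minus strand) and chr22:32801575-32801694 (plus strand).
MMP7: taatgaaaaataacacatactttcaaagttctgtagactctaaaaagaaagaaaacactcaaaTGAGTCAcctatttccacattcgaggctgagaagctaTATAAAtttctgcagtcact
MMP10: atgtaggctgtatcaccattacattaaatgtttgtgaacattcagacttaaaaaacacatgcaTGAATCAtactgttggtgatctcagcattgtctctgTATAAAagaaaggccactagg
TIMP3: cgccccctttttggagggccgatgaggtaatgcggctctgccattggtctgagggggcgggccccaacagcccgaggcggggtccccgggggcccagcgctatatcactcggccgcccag
MMP7 and MMP10 each hold TGANTCA with its first base at -67, as TGAGTCA at MMP7 and TGAATCA at MMP10. They hold TATAAA with its first base at -30 and -31. Neither motif was found in the 250 bases before the other 6 genes that matched. Over all 35116 RefSeq promoters of the same 250 bases, 6.57% held TGANTCA on either strand and 6.80% TATAAA on the gene strand. The 250 bases held 3 CpG sites at MMP7 and 2 at MMP10, against 26 at TIMP3, 31 at MMP15, 25 at MMP24, 25 at ADAM10, 12 at TIMP1 and 7 at MMP14. The median over all promoters was 11, and quartiles were 3 and 23. ETS-type motifs (AGGAAG, either strand) were found 2 times at MMP7, 2 times at ADAM10 and once at TIMP1, and in 28.7% of all promoters. These matches describe letters, and no methylation values were analysed here.

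The 3 membrane-type enzymes moved much less in ΔDNMT3A. MMP14, which cuts collagen at the cell surface and activates MMP2, lies on chromosome 14 (22836557 to 22849027). It was at 44.2 to 48.8 CPM in WT (median of 4 libraries 46.6) and 38.5 to 40.4 in ΔDNMT3A, a log2 fold change of -0.25 (SE 0.039). DNMT3A1 libraries were at 55.9 to 60.2 CPM, above all others, and those labelled DNMT3A2 at 46.8 to 50.7, which overlapped with WT. MMP15, another transmembrane enzyme (chromosome 16, 58025566 to 58046901), had 25.4 to 26.5 CPM in WT libraries and 30.0 to 32.8 CPM in ΔDNMT3A. It had 30.0 to 33.3 CPM in DNMT3A1 and 44.7 to 49.1 CPM in DNMT3A2. ΔDNMT3A and DNMT3A1 overlapped, with a log2 difference of 0.0041 (95% interval -0.10 to 0.11). MMP15 was highest in the libraries labelled DNMT3A2, with a log2 fold change against ΔDNMT3A of 0.58 (SE 0.040). MMP24, a membrane-type enzyme known from neurons that cuts N-cadherin (chromosome 20, 35226654 to 35277000), had 32.6, 32.2, 30.0 and 33.3 CPM in WT and 40.8, 40.4, 39.9 and 34.9 CPM in ΔDNMT3A. It had 18.2, 19.7 and 17.7 CPM in DNMT3A1 and 20.3, 21.0, 19.1 and 19.6 CPM in DNMT3A2. Both isoform lines were below ΔDNMT3A by 1.08 (SE 0.061) and 0.97 (SE 0.052) on the log2 scale. They were also below WT, with log2 fold changes of -0.80 (SE 0.054) and -0.70 (SE 0.048), past the level from which ΔDNMT3A had departed.

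ADAM10 (chromosome 15, 58588807 to 58749978) was at nearly one level in the 15 libraries. WT libraries ranged from 189 to 193 CPM, ΔDNMT3A from 193 to 197, DNMT3A1 from 197 to 205 and DNMT3A2 from 205 to 216. The log2 difference between ΔDNMT3A and WT was 0.019, with a 95% interval from -0.033 to 0.070. The libraries labelled DNMT3A2 were 0.12 higher than WT on the log2 scale (SE 0.023). The tetraspanins of the TspanC8 group carry ADAM10 to the cell surface. Of 6 listed and tested, 2 rose and 3 fell in ΔDNMT3A (median log2 fold change -0.012), beside 31.2% and 31.0% of all genes. TSPAN15, which directs ADAM10 to N-cadherin, rose by 0.82 on the log2 scale (SE 0.044), and TSPAN17 rose by 0.41 (SE 0.042). TSPAN5 fell by 1.55 on the log2 scale (SE 0.058), TSPAN33 fell by 0.50 and TSPAN14 fell by 0.25. In DNMT3A2 libraries TSPAN5 was 1.94 higher than in ΔDNMT3A, and in DNMT3A1 it was 0.034 higher, which did not pass the threshold.

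The 3 expressed TIMP genes went in different directions. TIMP1, a secreted inhibitor that also acts as a growth factor, lies on chromosome X (47582313 to 47586789). WT libraries had 15.1, 13.5, 16.4 and 16.3 CPM and ΔDNMT3A libraries 3.37, 3.40, 2.97 and 2.99 CPM. DNMT3A1 libraries had 1.97, 2.30 and 2.03 CPM and those labelled DNMT3A2 had 2.01, 2.35, 2.19 and 2.01 CPM. All 11 libraries with the edited gene lay below WT, and both isoform lines lay below ΔDNMT3A. The log2 fold change against WT was -2.27 in ΔDNMT3A (SE 0.084), -2.88 in DNMT3A1 (SE 0.100) and -2.87 in DNMT3A2 (SE 0.092).

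TIMP2 (chromosome 17, 78852977 to 78925387) had 35.9, 35.3, 37.7 and 37.2 CPM in WT and 57.0, 61.2, 57.9 and 57.5 CPM in ΔDNMT3A. DNMT3A1 libraries had 47.5, 50.6 and 46.9 CPM, between these lines, and those labelled DNMT3A2 had 25.8, 28.4, 26.0 and 26.3 CPM, below both. The log2 fold change was 0.67 in ΔDNMT3A against WT (SE 0.037), and against ΔDNMT3A it was -0.27 in DNMT3A1 (SE 0.044) and -1.14 in DNMT3A2 (SE 0.039). TIMP3, the matrix-bound inhibitor that also blocks ADAM10 and ADAM17, lies on chromosome 22 (32801701 to 32863043). WT libraries had 45.1, 46.4, 44.2 and 43.4 CPM of it and ΔDNMT3A libraries 109, 117, 103 and 93.1 CPM. DNMT3A1 libraries had 129, 117 and 121 CPM and those labelled DNMT3A2 had 49.3, 50.4, 50.1 and 50.0 CPM. ΔDNMT3A and DNMT3A1 overlapped at 117 CPM, and the libraries labelled DNMT3A2 lay 0.14 above WT on the log2 scale (SE 0.035). Against ΔDNMT3A the log2 fold change was 0.21 in DNMT3A1 (SE 0.054) and -1.09 in DNMT3A2 (SE 0.048).

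**Figure D2:**
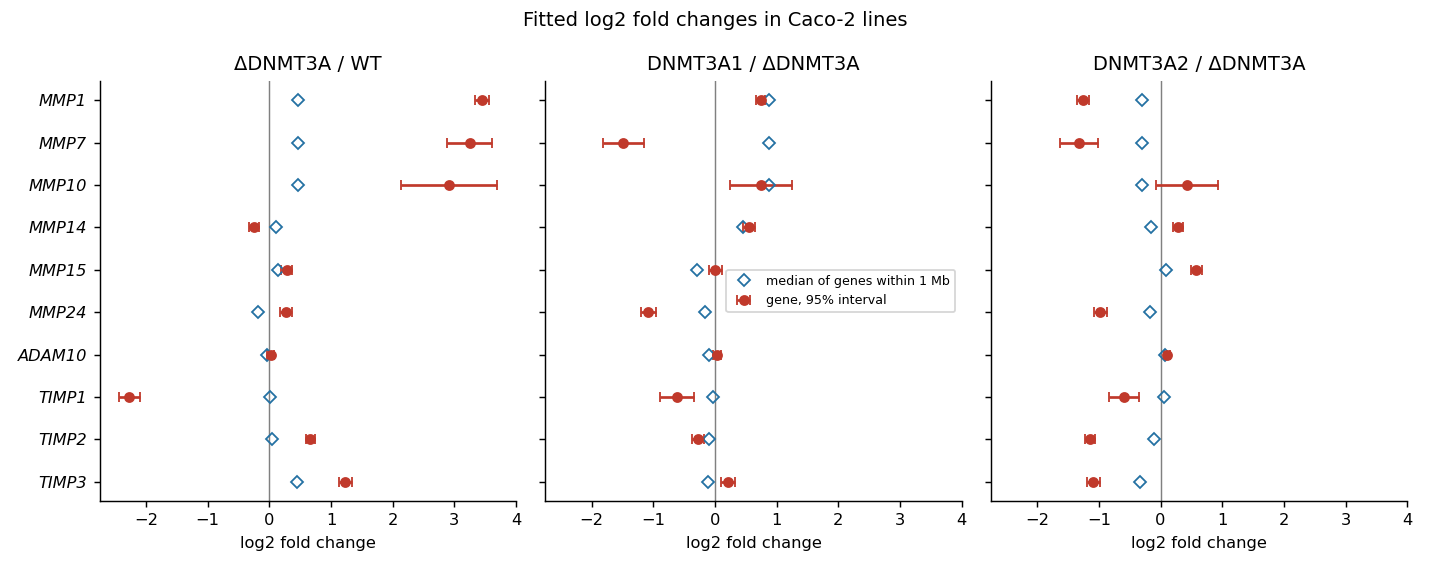
Log2 fold changes (x axes) of the 10 genes in 3 comparisons of Caco-2 lines, with 95% intervals from edgeR's fit (filled circles), and the median log2 fold change of tested genes within 1 Mb (open diamonds). The 3 MMP genes of chromosome 11 stand at 2.91 to 3.45 in ΔDNMT3A against WT while their neighbours have a median of 0.47, and MMP1 and MMP10 lie near their neighbours' median of 0.88 in DNMT3A1 against ΔDNMT3A.

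Levels per kilobase of exon allow the RNA of the enzymes to be set beside that of their inhibitors, as CPM per kb. The length is that of all annotated exons of a gene, which can exceed that of the transcripts present. Values of different genes are therefore set side by side only roughly. In WT, MMP1 was at 3.14 ± 0.276 (SD, n = 4) and TIMP1 at 9.95 ± 0.866. In ΔDNMT3A, MMP1 was at 34.4 ± 1.18 (SD, n = 4) and TIMP1 at 2.07 ± 0.152. The ratio of MMP1 to TIMP1 was 0.262 to 0.380 in the WT libraries, 15.4 to 17.6 in ΔDNMT3A, 38.4 to 44.9 in DNMT3A1 and 9.71 to 11.8 in DNMT3A2. The lines did not overlap in this ratio. Its genes are those of the listed genes with the largest rise and fall in ΔDNMT3A, so it describes that pair only. The summed level of the 3 TIMP genes did not follow TIMP1, being above WT in ΔDNMT3A and DNMT3A1 and below it in DNMT3A2. WT had 26.1 ± 0.795 CPM per kb (SD, n = 4) and ΔDNMT3A 35.4 ± 2.59 (n = 4), while DNMT3A1 had 36.6 ± 0.991 (n = 3) and DNMT3A2 17.0 ± 0.384 (n = 4). TIMP1 made up 37.99% of that sum in WT and 5.84% in ΔDNMT3A, and TIMP3 37.2% and 64.8%. The make-up of the inhibitor RNA thus shifted from TIMP1 to TIMP3.

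The same counts follow for the remaining comparisons. In DNMT3A1 against ΔDNMT3A, 4 of the 10 genes were higher and 4 lower, where 60.7% of all genes passed, 30.4% higher and 30.3% lower. In DNMT3A2 against ΔDNMT3A, 3 were higher and 6 lower, where 67.9% of all genes passed, 33.8% higher and 34.1% lower. Against WT, DNMT3A1 had 7 higher and 2 lower, where 65.3% of all genes passed, 32.6% higher and 32.7% lower. DNMT3A2 had 6 higher and 3 lower against WT, where 68.7% of all genes passed, 34.3% higher and 34.4% lower. Between the isoform lines, 4 genes were higher and 2 lower in DNMT3A1, where 68.5% of all genes passed, 34.5% higher and 33.9% lower. The largest of these differences were 2.00 for MMP1 (SE 0.048), 1.30 for TIMP3 (SE 0.036) and 0.86 for TIMP2 (SE 0.046) on the log2 scale. Each of these comparisons shares the libraries of at least 1 line with others, so their errors are linked.

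MMP1, MMP7 and MMP10 belong to a row of 9 MMP genes on chromosome 11 that spans 435 kb. The other 6, MMP20, MMP27, MMP8, MMP3, MMP12 and MMP13, were too low to test in Caco-2 cells. Their highest counts in any library were 11, 1, 1, 4, 2 and 10 reads. So the high level was that of 1 gene, MMP1, and its neighbour MMP3, only 46 kb away, had at most 4 reads in a library. WTAPP1, a pseudogene on the opposite strand that overlaps MMP10, MMP1 and MMP3, was 0.92 higher in ΔDNMT3A on the log2 scale. The Caco-2 counts were made by strand, so its reads were counted apart from theirs.

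Of 48 annotated genes that reach within 1 Mb of MMP1, 13 beside the 3 listed enzymes were tested. Over all genes, 31.2% rose and 31.0% fell in ΔDNMT3A against WT. Against ΔDNMT3A, 30.4% rose and 30.3% fell in DNMT3A1, and 33.8% rose and 34.1% fell in DNMT3A2. In ΔDNMT3A against WT, 9 of the 13 rose and 1 fell, with a median log2 fold change of 0.47. BIRC3, an inhibitor of apoptosis induced by NF-kB, was highest with 2.51, and DYNC2H1 was lowest with -0.29. In DNMT3A1 against ΔDNMT3A, 10 of the 13 rose and 1 fell, with a median of 0.88, which is above the value of MMP1 itself (0.74). YAP1 rose by 0.93, TMEM123 by 0.90 and DYNC2H1 by 1.38 there, whereas MMP7 and BIRC3 had -1.49 and -0.89. In DNMT3A2 against ΔDNMT3A, 2 rose and 7 fell, with a median of -0.30 beside -1.26 for MMP1. The windows of other genes moved as well. The median within 1 Mb of MMP14 was 0.45 in DNMT3A1 against ΔDNMT3A, where 30 of 34 genes tested rose, none fell and MMP14 had 0.55. For TIMP1 the median in ΔDNMT3A against WT was 0.0028 over 27 genes, beside -2.27 for TIMP1. For TIMP3 it was 0.44 over 8 genes, beside 1.23 for TIMP3. Around MMP24 the median against WT was -0.36 in DNMT3A1, where 29 of 37 genes fell and none rose, beside -0.80 for MMP24. In DNMT3A2 it was -0.33, where 29 of 36 fell and 1 rose, beside -0.70. Between the isoform lines the median around MMP15 was -0.51, with 23 of 32 genes lower and 3 higher in DNMT3A1, beside -0.58 for MMP15. Over all genes 32.7%, 34.4% and 33.9% fell in these 3 comparisons. WTAPP1, the 4 other named neighbours and the windows around MMP14, MMP15, MMP24, TIMP1 and TIMP3 were chosen after values had been seen. The part of the neighbourhood in each member's change was not tested.

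**Figure D3:**
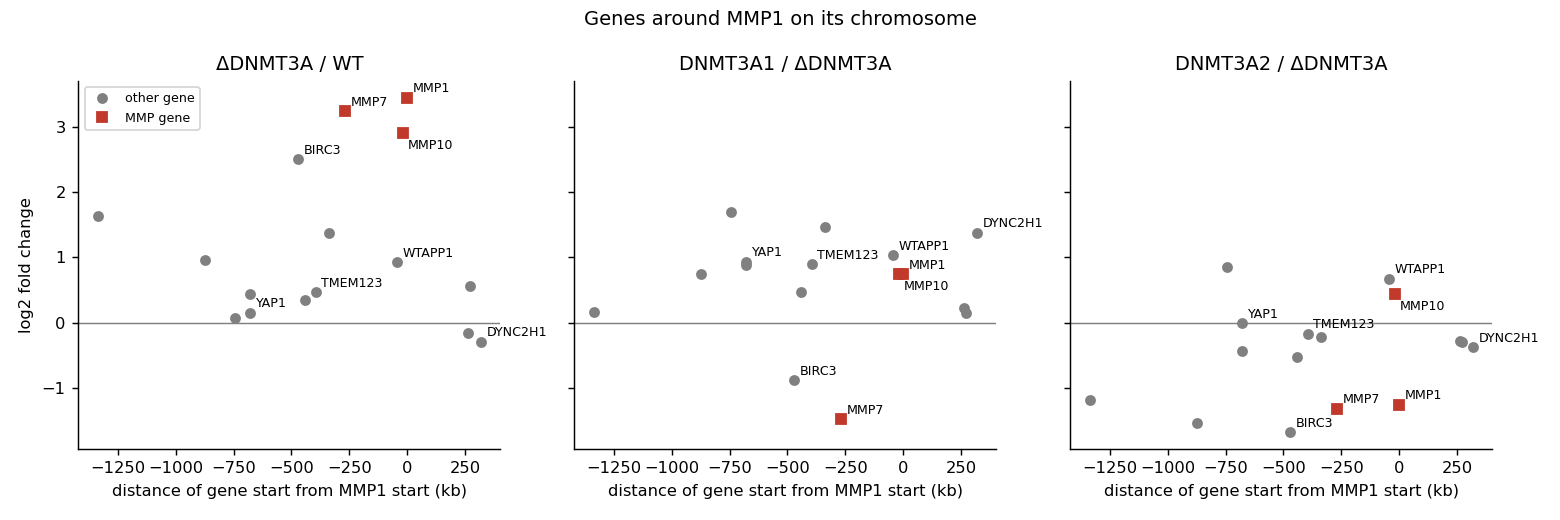
Log2 fold changes (y axis) of tested genes that reach within 1 Mb of MMP1, by distance of their start from that of MMP1 in kb (x axes), in 3 comparisons, with MMP1, MMP7 and MMP10 as squares. The 3 MMP genes stand above the other genes in ΔDNMT3A against WT, and MMP1 lies among them in DNMT3A1 against ΔDNMT3A.

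The genes most like MMP1, MMP7 and TIMP3 were those with the smallest root mean square difference in the log2 levels of the 3 edited lines relative to WT, among 13750 genes with a mean of at least 1 CPM. Those most like MMP1 were PPP2R2B (0.52), IL6R (0.55) and GPAT3 (0.61). IL6R, the interleukin 6 receptor, was at 3.46, 3.28 and 1.95 relative to WT in ΔDNMT3A, DNMT3A1 and DNMT3A2, beside 3.45, 4.19 and 2.19 for MMP1. Those most like MMP7 were CEACAM6 (0.40), a cell adhesion molecule of colon tumours, ANKRD19P (0.46) and PAPSS2 (0.49). Those most like TIMP3 were BIRC6 (0.084), SPAST (0.086) and NRBP1 (0.099). All 3 lie on chromosome 2, as does the edited DNMT3A, whereas TIMP3 lies on chromosome 22. They were at 1.13 to 1.33 relative to WT in ΔDNMT3A, 1.28 to 1.36 in DNMT3A1 and 0.17 to 0.19 in DNMT3A2. TIMP3 was at 1.23, 1.45 and 0.16. Whether these 3 genes share a shift of their region was not tested, so they may not be separate likenesses. The likeness rests on 4 lines and is a description.

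Beyond the 10 genes, 51 relatives were listed, which were other metalloproteinases, inhibitors, catalytic ADAMs and ADAMTS proteases. Of these, 17 were high enough to test in ΔDNMT3A against WT, 7 rose and 7 fell, with a median log2 fold change of 0.28. That is 82.4% of those tested, beside 62.2% of all genes. Only 3 other MMP genes were tested, MMP11, MMP17 and MMP19. MMP11, a stromelysin known from tumour stroma, fell by 1.01 on the log2 scale (SE 0.074), from 14.4 CPM in WT to 7.25. MMP17 and MMP19, named after their values were seen and both with a mean under 1 CPM over these libraries, were 4.73-fold lower and 5.65-fold higher. MMP2 was at 2 reads or fewer in every Caco-2 library and MMP9 at 6 or fewer, and TIMP4 did not exceed 2.

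Among other sheddases, 2 of 6 tested rose and 3 fell in ΔDNMT3A, where 31.2% of all genes rose and 31.0% fell. ADAM17, which releases TNF and EGF receptor ligands, fell by 0.80 on the log2 scale (SE 0.035), from 88.1 CPM in WT to 51.1. It was at 61.7 CPM in DNMT3A1 and 95.8 in DNMT3A2. ADAM8 fell by 1.34 and ADAM15 fell by 0.21, while ADAM19 rose by 0.78 and ADAM9 by 0.44. RECK, a membrane-bound inhibitor of MMPs, had a log2 difference of -0.013 (SE 0.205) between ΔDNMT3A and WT, at 1.02 and 1.01 CPM. It was at 2.52 ± 0.465 CPM in DNMT3A1 (SD, n = 3) and 0.277 ± 0.0700 in DNMT3A2 (n = 4), a log2 difference of 3.14. Of 6 ADAMTS genes tested, 3 rose and 2 fell in ΔDNMT3A, beside 31.2% and 31.0% of all genes. ADAMTS15 rose by 1.03 and ADAMTS9 by 0.28, and ADAMTS13, which cuts von Willebrand factor, fell by 0.66.

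Of 6 activators and inducers listed, 2 rose and 3 fell in ΔDNMT3A, where 31.2% of all genes rose and 31.0% fell. FURIN, the convertase that activates membrane-type MMPs, fell by 0.53 on the log2 scale (SE 0.043), from 52.9 to 37.0 CPM. It was at 49.02 and 51.01 CPM in DNMT3A1 and DNMT3A2. PCSK6 fell by 0.39 and BSG, a surface inducer of MMPs, fell by 0.26, while PCSK5 rose by 0.74 and ST14, or matriptase, rose by 0.15. Of 13 listed AP-1, ETS and RUNX transcription factor genes, 12 were tested, and 5 rose and 3 fell. That is 66.7% of those tested, near the 62.2% of all genes. FOSL2 rose by 1.24 (SE 0.029), JUN by 1.20 (SE 0.061) and ETS1 by 1.90 (SE 0.161), and JUNB, ETV4 and JUND fell by 0.48, 0.46 and 0.13. FOSL2, an AP-1 subunit, had means of 90.2 and 214.6 CPM in WT and ΔDNMT3A, and of 221.1 and 90.4 CPM in DNMT3A1 and DNMT3A2. Other AP-1 genes had other orders. JUN had means of 10.9, 25.4, 18.2 and 30.5 CPM in WT, ΔDNMT3A, DNMT3A1 and DNMT3A2. FOS and FOSL1 were named after their values were seen. FOS had means of 8.45, 8.06, 18.9 and 7.93 CPM, and FOSL1 of 0.197, 1.14, 0.242 and 0.254 CPM. ETS1 had means of 1.45, 5.53, 1.29 and 0.770 CPM in the same order. Against WT, FOSL2 had log2 fold changes of 1.24 in ΔDNMT3A and 1.29 in DNMT3A1. BIRC6, SPAST and NRBP1, the chromosome 2 genes most like TIMP3, were at 1.13 to 1.33 and 1.28 to 1.36 in these lines. In DNMT3A2 they were at 0.17 to 0.19, and FOSL2 was near its WT mean. Whether FOSL2 shares a shift with these genes was not tested. Whether the listed factors acted on the MMP genes was not tested either.

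In mouse colonic epithelium none of the 7 orthologs tested passed the threshold in ΔIEC against fl/fl by edgeR or by DESeq2. Of all 14626 genes tested with edgeR, 0.691% passed (101 genes), 0.602% higher and 0.0889% lower, and DESeq2 called 351 genes. At an unadjusted p under 0.05 in edgeR, 1 of the 7 passed, Mmp7, as did 2058 of all 14626 genes, which is near the same share. No gene is listed under the symbol Mmp1, and as orthologs were matched by symbol alone, MMP1 was not followed in the mouse. Mmp10 had 0 reads in all 8 libraries, and Timp1 had 3 or fewer, both at or under the floor of 3 counts. No ortholog had groups that did not overlap, as against 10.3% of all genes.

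Mmp7 (chromosome 9 of GRCm38, 7692090 to 7699585), which in the mouse is known as a product of Paneth cells, had 0.554, 0.262, 0.306 and 0.485 CPM in the fl/fl libraries. ΔIEC libraries had 1.21, 1.28, 1.61 and 0.449 CPM. The groups overlapped through the fourth ΔIEC library, which lay within the fl/fl range. The log2 fold change was 1.45 (SE 0.404, 95% interval 0.56 to 2.34), with a Benjamini-Hochberg adjusted p = 0.181 in edgeR, on 36 reads in fl/fl and 92 in ΔIEC. Over the alternatives tried, its adjusted p ranged from 0.0517 to 0.398. Of the listed Paneth markers, Ang4 rose in ΔIEC, from 2.84 to 9.37 CPM in fl/fl to 27.4 to 128.6 CPM (log2 fold change 3.22, SE 0.549, Benjamini-Hochberg adjusted p = 0.0261 in edgeR). Itln1 rose as well, with 0.263 to 0.445 CPM in fl/fl and 0.834 to 3.59 in ΔIEC. Lyz1, Defa17, Defa24 and Mptx2 did not exceed 0.525 CPM in any library, and Defa17 and Defa24 were at 0. The summed level of the 6 markers was 3.37 to 9.92 CPM in fl/fl and 28.3 to 132.4 CPM in ΔIEC, most of it Ang4. Only Ang4 and Itln1 were high enough to test, and whether the number of Paneth cells differed was not tested. Ang4 was highest in the fourth ΔIEC library (128.6 CPM), in which Mmp7 was lowest of the group. Of 7 immune markers, 3 were tested and none passed in edgeR, with a median log2 fold change of -0.18. Their summed level was 5.87 to 9.98 CPM in fl/fl and 8.30 to 10.4 CPM in ΔIEC. Ptprc alone among them had groups of 1.36 to 2.49 CPM and 3.48 to 4.88 CPM that did not overlap (Benjamini-Hochberg adjusted p = 0.0642 in edgeR). The part of cells with Ang4 RNA or of leukocytes in the Mmp7 value was not tested.

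The membrane-bound enzymes Mmp15, Adam10 and Mmp14 had the highest levels per kilobase of the 9 mouse genes. Mmp15 was at 364, 412, 295 and 439 CPM in fl/fl and 334, 347, 563 and 413 CPM in ΔIEC, with a log2 difference of 0.13 (95% interval -0.27 to 0.54). Per kilobase it was at 70.0 ± 11.7 CPM per kb in fl/fl (SD, n = 4), above Adam10 with 26.5 ± 2.24 and Mmp14 with 8.46 ± 0.767. In WT Caco-2 cells MMP15 was the lowest of the 3, at 5.88 ± 0.108 CPM per kb (SD, n = 4), with MMP14 at 10.4 ± 0.477 and ADAM10 at 11.9 ± 0.105. Species were normalized separately, so only the order within each is compared. This order depends on the annotated exon length, which was 16168 bases for human ADAM10 and 4913 for mouse Adam10. Adam10 had 114 to 137 CPM in fl/fl and 112 to 154 in ΔIEC, with a log2 difference of 0.020 (95% interval -0.23 to 0.26). Mmp14 had 24.5 to 30.4 and 23.8 to 31.7 CPM, and Mmp24 had 0.850 to 1.73 and 0.897 to 1.33 CPM.

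**Figure D4:**
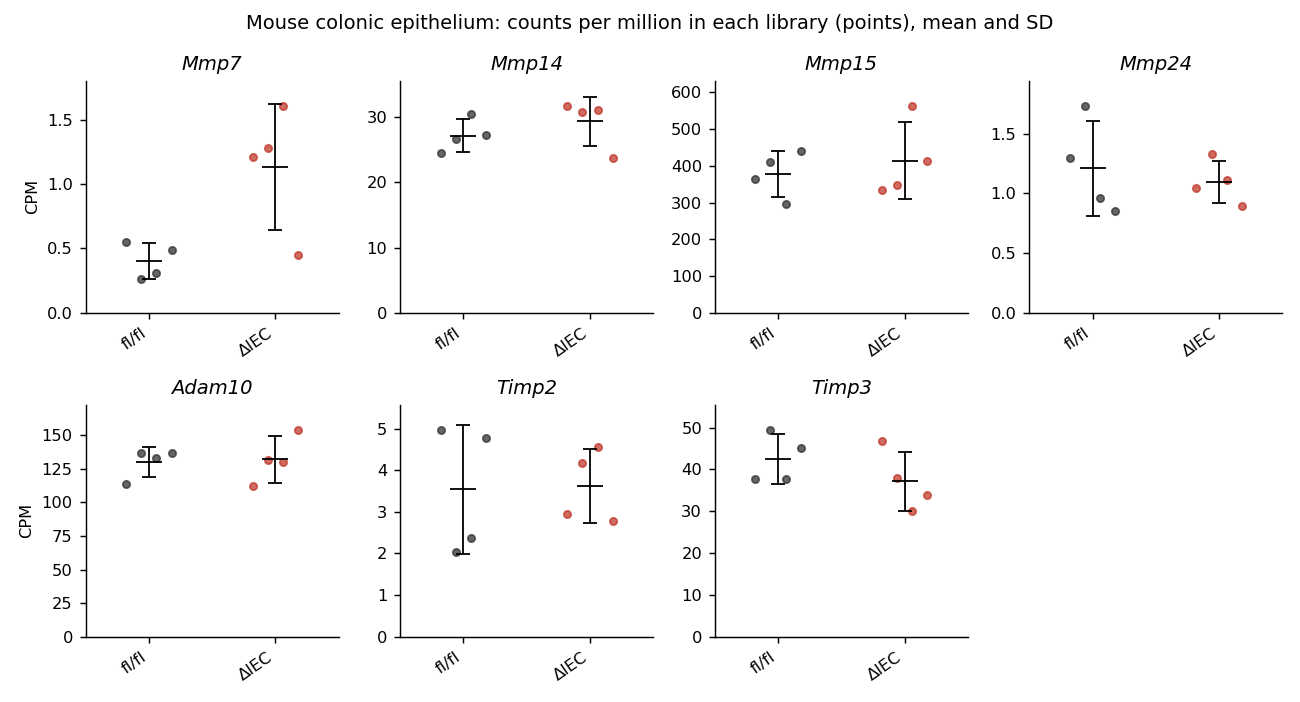
Levels in CPM (y axes, linear, from 0) of the 7 orthologs tested in each library (points) of Dnmt3a fl/fl and Dnmt3a ΔIEC colonic epithelium, with mean and SD (bars, n = 4 each). The groups overlap for every gene, and 3 of the 4 ΔIEC libraries are above all fl/fl libraries for Mmp7.

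Timp3 was the highest of the listed TIMP genes in the mouse per kilobase, with 5.22 ± 0.724 CPM per kb in fl/fl (SD, n = 4) beside 0.909 ± 0.398 for Timp2. Its libraries had 37.7, 49.5, 37.6 and 45.2 CPM in fl/fl and 46.7, 37.8, 30.1 and 34.0 CPM in ΔIEC. The log2 difference was -0.19 (SE 0.145, 95% interval -0.51 to 0.13, Benjamini-Hochberg adjusted p = 0.587 in edgeR). Timp2 had 2.05 to 4.98 CPM in fl/fl and 2.78 to 4.57 in ΔIEC, and its log2 difference was 0.014 (95% interval -0.67 to 0.70). The interval of Timp2 includes the 0.67 of TIMP2 in ΔDNMT3A cells, and that of Timp3 does not include the 1.23 of TIMP3 there. The mouse counts were made without strand, so reads of antisense genes cannot be told apart. Of 49 listed relatives present, 18 were tested and 0 passed by edgeR, with 3 at an unadjusted p under 0.05 (Adam8, Adamts15 and Adamts18, all lower) and 1 by DESeq2, Adamts15 (log2 fold change -0.89). The 3 of 18 are near the share of all genes at that unadjusted threshold, 2058 of 14626. Adam8, Adamts15 and Adamts18 were named after their values were seen. Adam17 was at 55.2 and 55.0 CPM in fl/fl and ΔIEC, Furin at 154.5 and 151.6, and Timp4 at 2.39 and 1.79.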

How the data were processed

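RNA was sequenced from 15 Caco-2 libraries and 8 libraries of mouse colonic epithelium. Per the file headers and the submitters' processing notes, the authors trimmed reads (Trim Galore 0.4.4), aligned them with STAR 2.5.2b to GRCh38 or GRCm38 and deposited raw counts per gene from featureCounts, by reverse strand in human (1.5.2) and without strand in mouse (1.6.4). Replicate 3 of DNMT3A1 was not analysed here. The 2 groups of each comparison entered edgeR 4.0.16 after filterByExpr and TMM scaling (quasi-likelihood test, Benjamini-Hochberg over all genes tested, threshold 0.05) in R 4.3.3. CPM use TMM sizes over all libraries of a species. SE is the log2 fold change divided by the root of F. Intervals cover 95%. Alternatives used DESeq2 1.42.0, other size factors, no filter, all 15 libraries, a replicate block, and lanes 5 and 6, added after the data were seen. The fit was tested on simulated data. The 10 genes and all lists were chosen with earlier results of these data known. Named relatives are the 3 highest and 3 lowest called genes per list with a mean of at least 1 CPM, and TIMP4, RECK, MMP2, MMP3, MMP9, ADAM17 and FURIN. Replicate numbers did not pair the Caco-2 libraries. Other steps ran in Python 3.11.15 (scipy 1.17.1, pandas 2.3.3, numpy 2.4.6, matplotlib 3.10.9).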

Additional observations from a re-analysis of the deposited data

Results flagged for a closer look

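MMP1 is set apart because the isoform lines moved in opposite directions from ΔDNMT3A. Every DNMT3A1 library was above and every library labelled DNMT3A2 below all ΔDNMT3A libraries, with log2 fold changes of 0.74 and -1.26. The isoform lines compared directly differed by 2.00 on the log2 scale (SE 0.048), past the threshold. This is a description because MMP1 was chosen from these values. All 13 tested neighbours within 1 Mb were also higher in DNMT3A1 than in DNMT3A2 (median 0.99), as were 34.5% of all genes. Against ΔDNMT3A, the neighbours had medians of 0.88 in DNMT3A1 and -0.30 in DNMT3A2. Their part in the MMP1 values was not tested. In addition, 1 library stood far from the other 3 of its group in 4 of the 44 groups of 4 examined, and chance alone does so in about 1 in 20. These were MMP15 in replicate 2 labelled DNMT3A2 (lowest, 44.7 CPM), MMP24 in ΔDNMT3A replicate 4 (lowest, 34.9 CPM), Mmp14 in the fourth ΔIEC library (lowest, 23.8 CPM) and Adam10 in the first fl/fl library (lowest, 114 CPM).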

How the results depend on the processing

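Another setting changed no count of the 10 genes past the threshold by over 1.5 times. Leaving out 1 library at a time gave 9 to 9 of the 10 genes in ΔDNMT3A against WT, 8 to 8 in DNMT3A1 and 9 to 10 in DNMT3A2 against ΔDNMT3A, 9 to 10 and 9 to 9 against WT, 5 to 6 between the isoform lines and 0 to 0 in the mouse. Listed relatives gave 14 to 15, 12 to 16, 10 to 11, 15 to 18, 12 to 12, 11 to 14 and 0 to 1 in the same order. With no filter, 16 in place of 10 relatives passed in DNMT3A2 against ΔDNMT3A, where more genes were tested. In the mouse, 1 relative passed with DESeq2 (Adamts15) and 1 without fl/fl replicate 2 (Adamts18), and over all genes 351 passed with DESeq2 against 101 with edgeR, 45 without ΔIEC replicate 3 and 55 to 61 without fl/fl replicate 1, 3 or 4 or ΔIEC replicate 2. The cause was not tested. With a replicate block, 9, 8, 9, 9, 9 and 7 of the 10 genes and 14, 14, 10, 15, 12 and 12 relatives passed in the 6 Caco-2 comparisons. The block added the call of MMP24 between the isoform lines (log2 fold change -0.13). Same-numbered libraries did not deviate together (21 correlations from -0.033 to 0.055), so the numbers gave no pairing.

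Signs turned only where the value did not pass. With library totals alone, ADAM10 in ΔDNMT3A against WT had -0.029, MMP14 in DNMT3A2 against WT -0.027 and TIMP1 between the isoform lines 0.0091 (log2 fold changes). MMP15 in DNMT3A1 against ΔDNMT3A had -0.0096 with DESeq2, -0.00023 with RLE size factors, -0.012 with no filter, -0.062 in lane 6 and -0.025 to 0.046 without 1 library. Between the isoform lines, MMP7 had 0.075 in lane 6, and TIMP1 had -0.085 to 0.014 without 1 library. In the mouse, the same range was -0.18 to 0.22 for Timp2, -0.28 to 0.080 for Mmp24, -0.050 to 0.22 for Mmp15 and -0.064 to 0.092 for Adam10. The call of MMP10 in DNMT3A1 against ΔDNMT3A was lost with DESeq2 and in either lane, and depth limits MMP7 and MMP10 most, with 1 to 14 reads per WT library. Calls also changed for ADAM10 and MMP24 at small differences. ADAM10 between the isoform lines (-0.07) did not pass with library totals alone, in either lane, or without DNMT3A1 replicate 1 or 2 or DNMT3A2 replicate 1 or 4. Without DNMT3A1 replicate 2, ADAM10 against WT (0.076) and MMP24 between the isoform lines (-0.15) passed, and without ΔDNMT3A replicate 2, MMP10 in DNMT3A2 against ΔDNMT3A (0.61) passed. TIMP1 in DNMT3A1 against ΔDNMT3A (-0.55) did not pass in lane 6, nor TIMP3 in DNMT3A2 against WT (0.11) in lane 5.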
